A study of Rattus norvegicus with 24 samples.

Results

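The genes described here are 10 activity-induced early genes: the transcription factors Fos, Fosb, Junb, Egr1, Egr2, Egr4, Nr4a1, Nr4a3 and Npas4, and the synaptic effector Arc. They were found by gene name in a table of 35032 genes, in which all 10 were present, and all 10 passed the filter on low counts in every comparison. mRNA had been sequenced from the paraventricular nucleus of the hypothalamus (PVN), whose neurons release corticotropin-releasing hormone, vasopressin and oxytocin, and from the central nucleus of the amygdala (CEA), a nucleus of the fear and stress circuits, in male Sprague-Dawley rats bought at 7 weeks of age. The 24 libraries formed 8 groups of 3, from 2 regions and 4 treatments. Normal control rats (NC) had no operation. Rats of the HT group had part of the left liver lobe removed under isoflurane. Rats of the group labelled HT+EA, called EA below, had the same operation with electroacupuncture at the Zusanli and Sanyinjiao points on the day before it and right after it. The sham group (SEA) had the operation and the same needles with no current. Rats of every group, NC included, were held awake in a restraint device for matching times, so restraint is common to all libraries, and tissue was taken a day after the last stimulation. No sham laparotomy is described for NC, so anesthesia, laparotomy and hepatectomy cannot be told apart in a comparison with NC. The paper left a CEA EA set, which it did not number, out of its network analysis for very large differences. All CEA EA libraries were kept here. The methods state 12 rats in 4 groups and also that samples did not all come from the same animal, so it is not given whether the PVN and CEA libraries of a number share a rat. The p-values therefore measure only the spread between these libraries.

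Immediate early genes are transcribed within minutes of synaptic activity or a growth factor signal, without new protein synthesis. Calcium and kinase signals reach their promoters through factors that are already bound there, chiefly CREB on cAMP response elements and serum response factor on CArG boxes. Fos, FosB and JunB are subunits of the AP-1 dimer, the EGR proteins are zinc finger factors, the NR4A proteins are orphan nuclear receptors, Npas4 is a neuronal bHLH-PAS factor induced by calcium entry, and Arc protein acts at synapses, where it promotes the removal of AMPA receptors. Because the transcripts decay quickly, their level mostly reports recent rather than past activity.

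Total counts ran from 13152772 to 18607032 per library, of which the 10 genes took between 0.00871% and 0.0482%. The lowest counts behind the values below were 4 for Npas4 and 7 for Egr2, whereas Egr1 and Junb had at least 344 and 348 counts in every library, so Npas4 and, in the PVN, Egr2 are the least precise. Levels are given as CPM, which scales counts to the same library total with TMM factors. The PVN libraries carried the defining hypothalamic genes, with Sim1 at 9.85 to 16.7 CPM and Otp at 23.2 to 30.1 CPM, against at most 0.955 and 1.43 CPM in the CEA libraries. Markers of the CEA and the striatum stood high in the CEA libraries, with a summed level of 9 genes of 2819 to 6976 CPM against 471 to 572 CPM in the PVN. The 9 include striatal genes such as Adora2a, at 144 to 530 CPM in the CEA libraries, so this dissection cannot be told apart from neighbouring striatum. The choroid plexus list summed to 1082 CPM in CEA NC replicate 2, 1787 CPM in CEA SEA replicate 2 and 383 CPM in CEA EA replicate 1, and to at most 26.3 CPM in the other 21 libraries. In bulk tissue, fewer cells of a type and less RNA per cell cannot be told apart.

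The mean levels of most of the 10 genes were lower in operated rats than in controls in both regions, but nearly all of these differences missed the threshold after adjustment. The NC group had the highest mean of the 4 treatments for 10 of 10 genes in the CEA and for 9 of 10 in the PVN, the exception being Egr2. The share of all genes with NC highest was not counted. The median log2 fold change of the 9 operated libraries (HT, EA and SEA) against the 3 NC libraries was -0.94 over the 10 genes in the CEA, beside 0.00 over all genes tested, and -0.57 in the PVN, beside -0.02. After adjustment over all genes, Junb in the PVN was the single member called (edgeR quasi-likelihood test, adjusted p = 0.0466), and its call was not stable to the processing, as given below. EA and SEA are compared with HT after the levels of each gene.

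**Figure D1:**
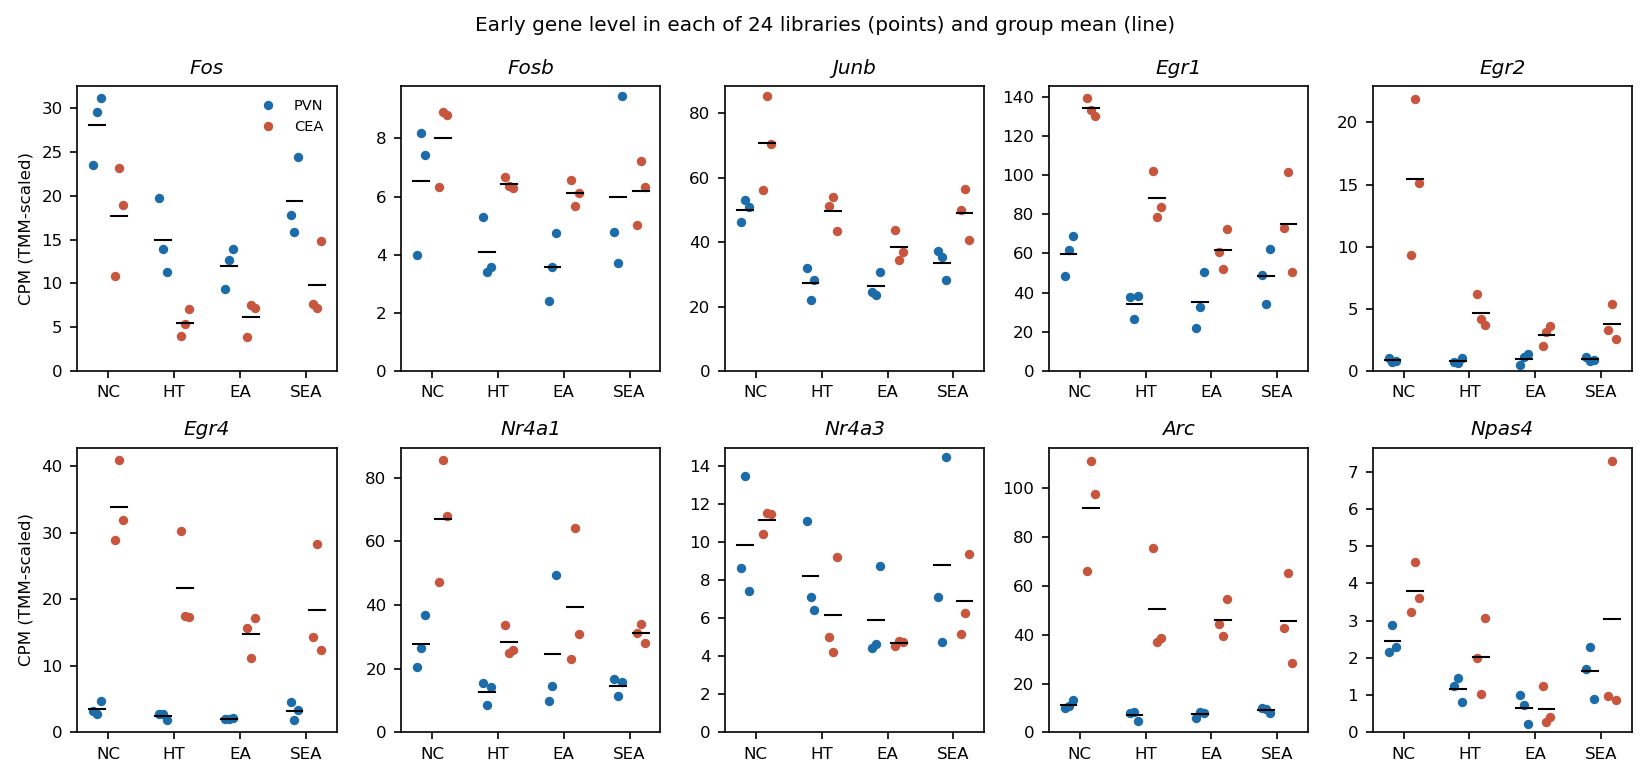
Level of each of the 10 early genes in CPM (y axis, from 0, with its own scale for each gene) by treatment (x axis), with 1 point per library, blue for the PVN and red for the CEA, and a line at the mean of the 3 libraries of a group. In the CEA the NC mean is the highest of the 4 treatments for all 10 genes, and Arc, Egr2 and Egr4 are far lower in the PVN than in the CEA.

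Fos (ENSRNOG00000008015, chr6:109300433-109303299, plus strand) encodes the inducible partner of JUN proteins and is the usual marker of recently active neurons. Coordinates are those of the deposited table, which names no build. The study's methods name mRatBN7.2, but the largest gene end on chromosome 1 in the table, 282724300, lies past the end of that chromosome. In the PVN, Fos was at 23.6, 29.5 and 31.2 CPM in NC replicates 1 to 3, at 19.8, 13.9 and 11.3 CPM in HT, at 9.40, 12.6 and 13.9 CPM in EA, and at 17.8, 15.9 and 24.4 CPM in SEA. Every HT and EA library lay below every NC library, while SEA replicate 3 lay within the NC range. In the CEA the values were 10.9, 23.2 and 19.0 CPM in NC, 3.97, 5.32 and 7.02 CPM in HT, 3.87, 7.50 and 7.16 CPM in EA, and 7.63, 7.17 and 14.8 CPM in SEA. Again HT and EA lay wholly below NC, and SEA replicate 3 was the one operated library inside the NC range. The share of all genes without overlap between 2 groups of 3 libraries was not counted, here or below.

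Junb (ENSRNOG00000042838, chr19:26092974-26094756, minus strand) encodes an AP-1 subunit that pairs with FOS proteins. In the PVN it was at 46.2, 53.0 and 51.0 CPM in NC, at 32.0, 22.0 and 28.2 CPM in HT, at 24.5, 23.6 and 30.9 CPM in EA, and at 37.2, 35.3 and 28.1 CPM in SEA. All 9 operated libraries lay below all 3 NC libraries. In the CEA the values were 56.2, 85.3 and 70.6 CPM in NC, 51.3, 53.9 and 43.6 CPM in HT, 43.8, 34.5 and 36.9 CPM in EA, and 50.0, 56.6 and 40.6 CPM in SEA. Here SEA replicate 2 overlapped the lowest NC library.

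Fosb (ENSRNOG00000046667, chr1:80214494-80221710, minus strand), whose truncated splice form accumulates with repeated stimulation, was at 6.53 ± 2.24 CPM in PVN NC and at 4.09 ± 1.04, 3.56 ± 1.17 and 5.98 ± 3.05 CPM in PVN HT, EA and SEA (SD, n = 3). In the CEA it was at 8.02 ± 1.46 CPM in NC and at 6.44 ± 0.213, 6.12 ± 0.444 and 6.19 ± 1.11 CPM in HT, EA and SEA. The ranges of NC and the operated groups overlapped in both regions, and the table does not separate the splice forms.

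Egr1 (ENSRNOG00000019422, chr18:27657628-27661429, plus strand), a zinc finger factor used as a marker of synaptic activity and plasticity, was at 48.2, 61.7 and 68.8 CPM in PVN NC. It was at 37.8, 26.7 and 38.2 CPM in PVN HT, at 21.7, 32.9 and 50.3 CPM in EA, and at 49.1, 34.0 and 62.2 CPM in SEA. HT lay wholly below NC, whereas EA and SEA overlapped it. In the CEA, Egr1 was at 140, 133 and 130.4 CPM in NC, at 102, 78.9 and 83.5 CPM in HT, at 61.0, 52.1 and 72.6 CPM in EA, and at 72.8, 102 and 50.5 CPM in SEA. The 3 NC libraries were close to each other, with a mean of 134 ± 4.72 CPM (SD, n = 3), and all 9 operated libraries lay below them.

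Egr2 (ENSRNOG00000000640, chr20:22454463-22459025, minus strand), also known as Krox20, with roles in hindbrain patterning and myelination, had the largest difference of the 10 genes between NC and operated libraries in the CEA. It was at 9.32, 21.9 and 15.1 CPM in CEA NC, against 6.15, 4.15 and 3.70 CPM in HT, 2.04, 3.11 and 3.61 CPM in EA, and 3.33, 5.43 and 2.56 CPM in SEA. All 9 operated libraries lay below all NC libraries, although the NC libraries themselves spread more than the operated ones. In the PVN the gene rested on as few as 7 counts, at 0.855 ± 0.193, 0.797 ± 0.227, 0.957 ± 0.461 and 0.949 ± 0.151 CPM in NC, HT, EA and SEA (SD, n = 3), with all 4 ranges overlapping.

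Egr4 (ENSRNOG00000015719, chr4:117293620-117296082, minus strand), a further EGR factor, was at 28.9, 40.8 and 31.9 CPM in CEA NC. It was at 30.2, 17.5 and 17.3 CPM in HT, at 15.8, 11.2 and 17.2 CPM in EA, and at 14.3, 28.3 and 12.4 CPM in SEA. EA lay wholly below NC and so did SEA, by a narrow margin in replicate 2, while HT replicate 1 lay inside the NC range. In the PVN it was at 3.54 ± 0.966 CPM in NC and at 2.49 ± 0.585, 2.06 ± 0.0580 and 3.27 ± 1.35 CPM in HT, EA and SEA (SD, n = 3).

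Nr4a1 (ENSRNOG00000007607, chr7:142905758-142920216, plus strand), the orphan receptor Nur77, which in the hypothalamus and pituitary can activate genes of the stress axis, was set by single libraries in the EA groups. In the PVN it was at 20.5, 26.4 and 36.7 CPM in NC, at 15.5, 8.52 and 14.2 CPM in HT, at 9.71, 14.5 and 49.3 CPM in EA, and at 16.6, 11.4 and 15.9 CPM in SEA. In the CEA it was at 47.2, 85.6 and 68.0 CPM in NC, at 33.9, 24.9 and 25.9 CPM in HT, at 22.97, 64.1 and 31.0 CPM in EA, and at 31.2, 34.1 and 28.2 CPM in SEA. HT and SEA lay wholly below NC in both regions. EA overlapped NC in each region through 1 library, replicate 3 in the PVN and replicate 2 in the CEA. A second header line inside the table exchanges the numbers of CEA EA replicates 2 and 3, so by that line both high libraries would carry the number 3.

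Nr4a3 (ENSRNOG00000005964, chr5:63781801-63821637, plus strand), the related receptor NOR-1, was at 10.5, 11.6 and 11.5 CPM in CEA NC. It was at 5.03, 4.22 and 9.24 CPM in CEA HT, at 4.52, 4.80 and 4.75 CPM in EA, and at 5.15, 6.30 and 9.36 CPM in SEA. All 9 operated libraries lay below NC, and EA was the tightest group. In the PVN it was at 9.85 ± 3.18, 8.23 ± 2.52, 5.93 ± 2.42 and 8.78 ± 5.08 CPM in NC, HT, EA and SEA (SD, n = 3), with overlapping ranges.

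Npas4 (ENSRNOG00000020009, chr1:220261008-220265772, minus strand), which regulates inhibitory synapses onto active neurons, was at 2.15, 2.89 and 2.29 CPM in PVN NC. It was at 1.24, 1.45 and 0.821 CPM in HT, at 1.01, 0.733 and 0.213 CPM in EA, and at 1.71, 2.30 and 0.897 CPM in SEA. HT and EA lay wholly below NC and SEA overlapped it. In the CEA, Npas4 was at 3.23, 4.58 and 3.61 CPM in NC, at 1.99, 1.04 and 3.08 CPM in HT, at 1.24, 0.270 and 0.401 CPM in EA, and at 0.978, 7.30 and 0.880 CPM in SEA. SEA replicate 2 was the highest of all 24 libraries, and its choroid plexus and striatal lists were also high (1787 and 6737 CPM). The part of these lists in its Npas4 level was not tested.

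Arc (ENSRNOG00000043465, chr7:115907097-115910541, minus strand) was at 66.2, 111 and 97.8 CPM in CEA NC. It was at 75.6, 36.8 and 38.6 CPM in CEA HT, at 44.3, 39.5 and 54.5 CPM in EA, and at 42.7, 65.2 and 28.5 CPM in SEA. EA and SEA lay below NC, and HT replicate 1 lay within the NC range. In the PVN it was at 9.85, 10.8 and 13.2 CPM in NC, at 7.77, 8.26 and 4.81 CPM in HT, at 5.74, 8.32 and 7.98 CPM in EA, and at 9.90, 9.47 and 8.13 CPM in SEA. HT and EA lay below NC, and SEA replicate 1 reached the lowest NC value.

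The promoters of these genes are shown because early induction runs through known elements. RefSeq promoter sequences (assembly GRCr8, the 250 bases before the annotated start) matched 7 of the 10 genes by symbol: Fosb, Junb, Egr1, Egr2, Egr4, Nr4a1 and Npas4. The core of the cAMP response element, CGTCA on either strand, was in 5 of the 7, all but Fosb and Npas4, against 18.2% of 33469 RefSeq promoters. The full palindrome TGACGTCA, which overlaps that core, was in 0 of 7 against 1.59%. The CArG box was in 2 of 7, Egr1 and Egr2, against 1.5%, and both elements stood together in the same 2, against 0.23%. In both Egr1 and Egr2 a CArG box lay 83 to 74 bases, and a CGTCA core 66 to 62 bases, before the start. Parts of 3 promoters are printed, with the CArG box and each CGTCA core in capitals, because Egr2 had the largest difference in the CEA, Egr4 the largest between regions over all treatments, and Nr4a1 the most cores (4). They are Egr2 (GRCr8, chr20:21054483-21054544, minus strand), Egr4 (chr4:119607903-119608015, minus strand) and Nr4a1 (chr7:134259888-134260109, plus strand):
Egr2: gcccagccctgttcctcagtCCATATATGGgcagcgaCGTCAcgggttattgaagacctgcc
Egr4: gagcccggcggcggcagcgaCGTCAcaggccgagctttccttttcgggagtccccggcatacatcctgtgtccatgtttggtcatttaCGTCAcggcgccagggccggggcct
Nr4a1: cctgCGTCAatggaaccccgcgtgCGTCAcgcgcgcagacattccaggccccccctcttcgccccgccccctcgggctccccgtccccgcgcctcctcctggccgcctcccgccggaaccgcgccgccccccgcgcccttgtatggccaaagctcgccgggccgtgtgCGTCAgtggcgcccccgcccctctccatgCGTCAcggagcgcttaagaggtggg
A match is a description of the letters and not a test of binding.

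To ask what the operation as such was accompanied by, the 9 operated libraries of a region were set against its 3 NC libraries. In the PVN, 9 of 10 members had a negative log2 fold change and 1 was called after adjustment, where 0.0639% of all genes tested were called. Junb was at 29.1 ± 5.24 CPM (SD, n = 9) against 50.1 ± 3.49 CPM (SD, n = 3) and fell by 0.78 on the log2 scale (SE 0.118, edgeR adjusted p = 0.0466). Members at an unadjusted p under 0.05 and lower were 5 of 10 (3 without NC replicate 3), against 14.2% of all genes, a wide background. Every operated library lay below every NC library for 1 member, Junb, against 2.45% of genes. The Junb call was lost with the replicate number as a block (adjusted p = 0.0689), without the SEA libraries (0.0870), with RLE factors (0.0501), and when any of 11 of the 12 libraries was left out (0.0722 to 0.299). Without PVN NC replicate 2 it held, at an adjusted p of 0.00144, and Fos and Arc were called too, in a fit that called 33.7% of all genes. DESeq2 called 4 members, Fos, Junb, Egr1 and Arc, and 18% of all genes. Marker lists also differed here. The neuroendocrine list was negative in 5 of 6 genes, with a median of -0.27 and 2 lower at an unadjusted p under 0.05. The thalamic list was positive in 5 of 6 genes, with a median of 0.36 and 2 higher at that threshold, and the list for excitatory neurons of cortex and hippocampus in 7 of 7, with a median of 0.56 and 0 at that threshold. The part of the thalamic and excitatory lists in the members' values was not tested. With the neuroendocrine sum as a covariate, a fit added after the data were seen, Junb fell short of the threshold (log2 fold change -0.81, adjusted p = 0.123).

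In the CEA all 10 members had a negative log2 fold change in the same comparison, and all 10 had an unadjusted p under 0.05, against 1.27% of all genes lower at that threshold. None was called after adjustment by edgeR, where 0% of 17046 genes were, while DESeq2 called 3, Fos, Egr1 and Egr2, and 0.0579% of genes. Every operated library lay below every NC library for 3 members, Egr1, Egr2 and Nr4a3, against 0.311% of genes. Egr2 had a log2 fold change of -2.05 (SE 0.269, edgeR unadjusted p = 6.97e-06, adjusted p = 0.119), from 15.4 ± 6.28 CPM in NC to 3.79 ± 1.31 CPM in the operated libraries. Egr1 had one of -0.85 (SE 0.167, edgeR unadjusted p = 0.000269, adjusted p = 0.764). The other 8 lay between -1.35 for Fos and -0.36 for Fosb. The sign was negative for all 10 whichever library was left out.

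**Figure D2:**
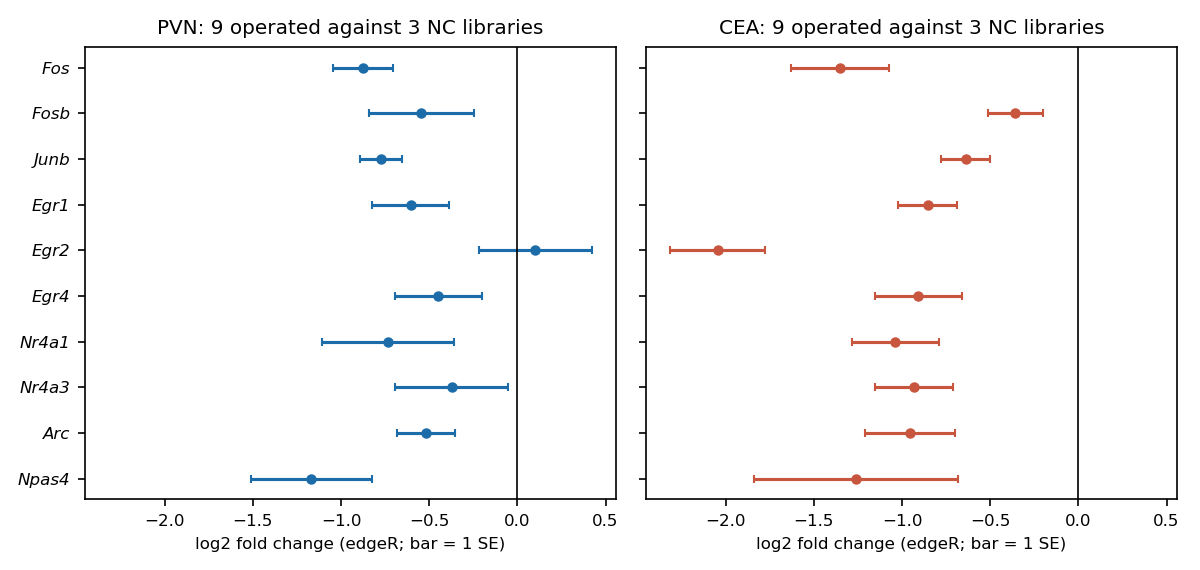
Log2 fold change (x axis) of the 9 operated libraries (HT, EA and SEA) against the 3 NC libraries for each early gene (y axis) in the PVN (left) and the CEA (right), with bars of 1 SE from edgeR. All 10 points are below 0 in the CEA, with Egr2 lowest at -2.05, and 9 of 10 are below 0 in the PVN.

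The marker lists of other cells also differed between these libraries. In operated against NC, all 8 genes of the list for excitatory neurons of cortex and hippocampus were lower in the CEA, with a median log2 fold change of -0.74, and so were 5 of 6 thalamic genes, with a median of -0.38, none called by edgeR or at an unadjusted p under 0.05 in this comparison. The excitatory list summed to 85.1 to 760 CPM in NC and to 21.0 to 812 CPM in HT, 92.6 to 436 CPM in EA and 129 to 483 CPM in SEA, with all 4 ranges overlapping. The choroid plexus sums had medians of 16.5 CPM in NC and 12.6, 12.25 and 23.9 CPM in HT, EA and SEA. The medians of the neuroendocrine sums were 83.7, 43.5, 163 and 137 CPM in the same order. Ranges overlapped for both. The part of all these lists in the members' values was not tested. CEA NC replicate 2, with the high choroid plexus sum, was the highest of the 3 NC libraries for 9 of the 10 members. Without it all 10 log2 fold changes stayed negative, 8 had an unadjusted p under 0.05, and that of Egr2 was -1.71 (edgeR adjusted p = 1.0). The summed level of the 9 CEA and striatal genes was 4288 to 6377 CPM in NC, 4818 to 6976 CPM in HT, 3029 to 4264 CPM in EA and 2819 to 6737 CPM in SEA, and its 9 genes had a median log2 fold change of 0.05 in HT against NC and -0.22 in operated against NC. Within NC, replicate 1 had the highest sum and the lowest value for 9 of the 10 members, and replicate 2 the lowest sum. Among the operated libraries, HT replicate 1 and SEA replicate 2 had the highest sums (6976 and 6737 CPM) and also the highest Egr4 and Arc levels. With that sum as a covariate, added after the data were seen, all 10 members stayed negative and edgeR called 3, Fos, Egr1 and Egr2, and 0.0352% of all genes, Egr2 with a log2 fold change of -2.02 (adjusted p = 0.0323).

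**Figure D3:**
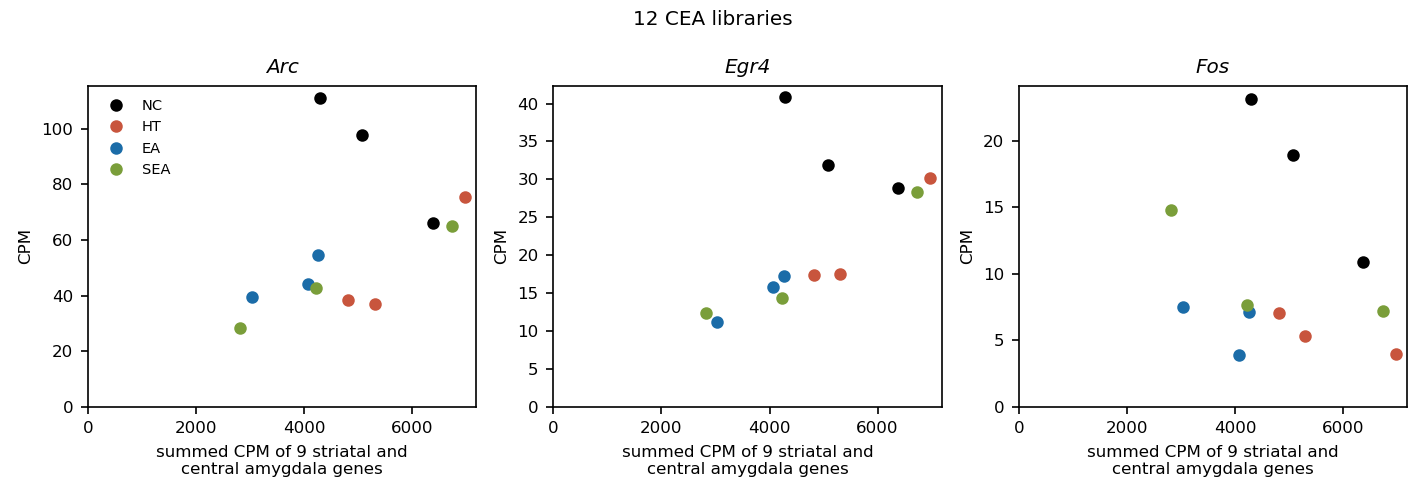
Level of Arc, Egr4 and Fos in CPM (y axes, from 0) against the summed CPM of 9 CEA and striatal marker genes (x axes) in the 12 CEA libraries, coloured by treatment. The operated libraries with sums of 6737 and 6976 CPM have the highest Arc and Egr4 of the 9, whereas the NC libraries with sums near 4288 and 5077 CPM lie above all operated libraries for all 3 genes and the NC library at 6377 CPM does not.

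HT against NC compares operated rats that had no needles with unoperated rats. In the PVN, 10 of 10 members were negative, with a median log2 fold change of -0.72 beside -0.01 over all genes. The neuroendocrine list was lower too, in 5 of 6 genes, with a median of -0.57 and 3 genes at an unadjusted p under 0.05. Its sum was 410 to 936 CPM in HT, lowest in replicate 3, against 996 to 1349 CPM in NC. The summed blood list did not overlap either, at 503 to 758 CPM in HT and 967 to 1334 CPM in NC. Nor did the choroid plexus sums, at 10.4 to 11.8 CPM in HT and 14.2 to 17.9 CPM in NC. The thalamic list was positive in 5 of 6 genes, with a median of 0.56 and 2 at an unadjusted p under 0.05, and the excitatory list in 7 of 7, with a median of 0.42. The part of these lists in the members' values was not tested. Of the members, 0 were called by edgeR, where 0.012% of genes were, and DESeq2 called 2, Junb and Nr4a1, and 0.167% of genes. Lower at an unadjusted p under 0.05 were 6 of 10, against 5.35% of genes. Junb had the smallest p (log2 fold change -0.84, SE 0.147, edgeR adjusted p = 0.418), followed by Egr1 (-0.77, SE 0.179, adjusted p = 0.418). Without PVN NC replicate 2, edgeR called 4 members, Fos, Junb, Egr1 and Nr4a1, but in that fit it called 20.2% of all genes. In the CEA, 10 of 10 were negative as well, with a median of -0.85 beside 0.02. The choroid plexus genes were negative in 5 of 5, with a median of -2.36 and 1 at an unadjusted p under 0.05, and the thalamic genes in 6 of 6, with a median of -0.38, and the part of both was not tested. Here too no member was called by edgeR, where 0% of genes were, and DESeq2 called 3, Fos, Egr2 and Nr4a1, and 0.149% of genes. Lower at an unadjusted p under 0.05 were 8 of 10, against 1.41% of genes, but 4 of 10 without NC replicate 2 and 4 without NC replicate 3, and 5 without HT replicate 2. Fos had the smallest p (log2 fold change -1.69, SE 0.329, edgeR adjusted p = 0.917), followed by Nr4a1 (-1.23, SE 0.240, adjusted p = 0.917).

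To ask whether the stimulation was accompanied by a return of these levels, EA was compared with HT. In the PVN, 6 members were negative and 4 positive, with a median log2 fold change of -0.14. Single libraries set this count, with 4 negative and a median of 0.03 without HT replicate 1, and 9 negative and a median of -0.32 without EA replicate 3. All 6 neuroendocrine genes were higher in EA, by a median of 0.44, 3 of them at an unadjusted p under 0.05. The blood sums did not overlap, at 790 to 1300 CPM in EA and 503 to 758 CPM in HT. Nor did the choroid plexus sums, at 15.3 to 16.7 and 10.4 to 11.8 CPM. The sums of the other lists overlapped. The part of these lists in the members' values was not tested. No member was called by edgeR, where 0.0961% of genes were, or by DESeq2, and 0 had an unadjusted p under 0.05, against 5.67% of genes. Npas4 (-0.87, SE 0.499, edgeR adjusted p = 0.915) and Nr4a1 (0.93, SE 0.533, adjusted p = 0.915) had the smallest p. The Nr4a1 value rested on EA replicate 3, without which it was -0.084. That of Npas4 was -0.44 without EA replicate 3 and -1.31 without EA replicate 1. In the CEA, 8 members were negative and 2, Fos and Nr4a1, positive. All 9 CEA and striatal genes were negative too, with a median of -0.62 and 3 at an unadjusted p under 0.05, and their sums in EA lay wholly below those in HT. So were the 5 excitatory genes tested, with a median of -1.33 and 1 at that threshold. Other lists went the other way. The neuroendocrine sum had a median of 163 CPM in EA and 43.5 CPM in HT, with overlap. The choroid plexus sum was 383 CPM in EA replicate 1 and at most 26.3 CPM in HT. The part of these lists was not tested in this comparison. No call was made by either tool, where edgeR called 0% of genes, and 2 of 10 had an unadjusted p under 0.05 (0 without HT replicate 1 or without EA replicate 2), against 3.19%. Egr1 had a log2 fold change of -0.51 (SE 0.181, edgeR adjusted p = 0.930) and Npas4 one of -1.69 (SE 0.644, adjusted p = 0.930), which was -2.57 without EA replicate 1. Of the 10 members, EA had the lowest mean of the 4 treatments for 7 in the CEA and for 6 in the PVN. The share of all genes with EA lowest was not counted, and single libraries moved the comparison with HT, as given above.

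The needles without current were compared with HT in the same way. In the PVN all 10 members had a positive log2 fold change in SEA against HT, with a median of 0.38, but 2 were negative without HT replicate 2 and 1 without HT replicate 3 or without SEA replicate 3. The 6 neuroendocrine genes were all higher as well, by a median of 0.36, 2 of them at an unadjusted p under 0.05, and their part in the members' values was not tested. Again no member was called by either tool, where edgeR called 0% of genes, and 1 had an unadjusted p under 0.05, Egr1, against 4.38% of genes. Egr1 had a log2 fold change of 0.50 (SE 0.212, edgeR adjusted p = 0.982) and Arc one of 0.40 (SE 0.205, adjusted p = 0.982). Without SEA replicate 3 that of Egr1 was 0.28, and without HT replicate 3 that of Arc was 0.19. In the CEA, 4 were positive and 6 negative (3 negative without HT replicate 1), 0 were called by either tool, where edgeR called 0% of genes, and 1 had an unadjusted p under 0.05, against 3.07%. That was Fos (0.84, SE 0.352, edgeR adjusted p = 0.959), which lost much of its difference without SEA replicate 3 (0.44), and Egr1 followed (-0.24, SE 0.251, adjusted p = 0.959). That of Egr1 was -0.03 without SEA replicate 3, -0.11 without HT replicate 1 and -0.52 without SEA replicate 2. The choroid plexus genes were positive in 5 of 5 here, with a median of 2.83 and 2 at an unadjusted p under 0.05. The excitatory genes were negative in 7 of 7, with a median of -0.73, and the CEA and striatal genes in 8 of 9, with a median of -0.27. The part of these lists was not tested.

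EA against SEA compares current with no current at the same needles. In the PVN, 8 of 10 members were lower in EA, with a median log2 fold change of -0.52. None was called by either tool, where edgeR called 0% of genes, and 3 had an unadjusted p under 0.05 (lower for 1 without EA replicate 2 or without SEA replicate 1, and for 5 without SEA replicate 2), against 5.21% of genes. Fos was at 11.96 ± 2.31 CPM in EA and 19.4 ± 4.45 CPM in SEA (SD, n = 3), without overlap (log2 fold change -0.70, SE 0.181, edgeR adjusted p = 0.917), and Junb had one of -0.36 (SE 0.133, adjusted p = 0.917). In the CEA, 8 of 10 were lower in EA, with a median of -0.34, but without SEA replicate 2 it was 5 of 10 with a median of -0.003. The choroid plexus genes were negative in 5 of 5, with a median of -1.57, and the CEA and striatal genes in 8 of 9, with a median of -0.26, and their part was not tested. In the CEA 0 members were called by either tool, where edgeR called 0% of genes, and 1 had an unadjusted p under 0.05, against 1.99%. That was Npas4 (-2.29, SE 0.968, edgeR adjusted p = 1.0), and without SEA replicate 2 its log2 fold change was -0.57. Junb followed with -0.35 (SE 0.158, adjusted p = 1.0).

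Against NC, the groups with needles gave the following values, and they share their NC libraries with the HT comparison. In PVN EA, 9 of 10 members were negative, with a median log2 fold change of -0.76. The excitatory genes were positive in 7 of 7, with a median of 0.62 and 1 at an unadjusted p under 0.05, and the thalamic genes in 6 of 6, with a median of 0.22, and their part was not tested. No member was called by edgeR, where 0.0119% of genes were, DESeq2 called 2, Fos and Junb, and 0.313% of genes, and 7 were lower at an unadjusted p under 0.05 (4 without NC replicate 3), against 5.41%. Junb had a log2 fold change of -0.91 (SE 0.127, edgeR adjusted p = 0.271) and Fos one of -1.21 (SE 0.176, adjusted p = 0.310), and without PVN NC replicate 2 edgeR called both, with 19% of all genes. In PVN SEA, 9 of 10 were negative with a median of -0.28, but 6 of 10 with a median of -0.18 without SEA replicate 2, and the median was -0.47 without SEA replicate 3. The excitatory genes were positive in 7 of 7, with a median of 0.32, and the thalamic genes in 5 of 6, with a median of 0.31, and their part was not tested. Of the members, 0 were called by either tool, where edgeR called 0% of genes. Lower at an unadjusted p under 0.05 were 3, against 6.44%. Junb had a log2 fold change of -0.56 (SE 0.129, edgeR adjusted p = 0.375) and Nr4a1 one of -0.92 (SE 0.232, adjusted p = 0.375), and without PVN NC replicate 2 edgeR called both, with 24.3% of all genes. In CEA EA, 10 of 10 were negative, with a median of -1.15. None was called by edgeR, where 0.00606% of genes were, and 8 were lower at an unadjusted p under 0.05, against 2.02%. Here the 6 excitatory genes tested were negative as well, with a median of -1.48 and 2 at an unadjusted p under 0.05, and so were all 9 CEA and striatal genes, with a median of -0.45 and 1 at that threshold. The neuroendocrine sums were 119 to 164 CPM in EA and 40.3 to 138 CPM in NC, with overlap. Those of the choroid plexus list were 10 to 383 CPM in EA and 13.8 to 1082 CPM in NC. The part of these lists was not tested. DESeq2 called 8, all but Fosb and Nr4a1, and 0.228% of genes. Egr1 had a log2 fold change of -1.11 (SE 0.134, edgeR adjusted p = 0.215) and Nr4a3 one of -1.24 (SE 0.155, adjusted p = 0.215). In CEA SEA, 10 of 10 members were negative with a median of -0.84. The excitatory genes were negative in 8 of 8, with a median of -0.71, the CEA and striatal genes in 8 of 9, with a median of -0.22, and their part was not tested. Of the members, 0 were called by edgeR, where 0% of genes were. DESeq2 called 2, Egr2 and Nr4a1, and 0.0609% of genes, and 7 were lower at an unadjusted p under 0.05, against 1.33% of genes, but 3 without NC replicate 2 or without SEA replicate 1 and 4 without NC replicate 3. Egr2 had a log2 fold change of -2.02 (SE 0.389, edgeR adjusted p = 1.0) and Nr4a1 one of -1.10 (SE 0.212, adjusted p = 1.0).

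**Figure D4:**
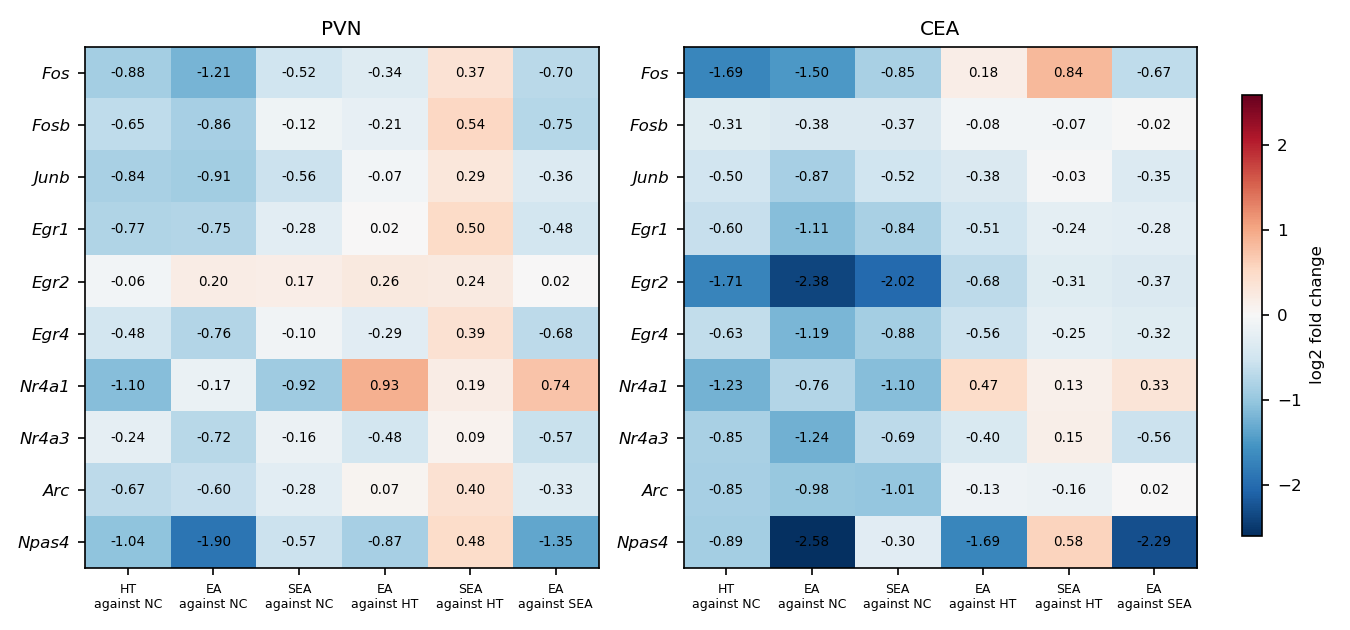
Log2 fold change of each early gene (rows) in the 6 pairwise comparisons of treatments (columns) in the PVN (left) and the CEA (right), as colour from blue (negative) to red (positive) with the value printed. The 3 columns against NC are nearly all blue, the column of SEA against HT is positive for all 10 genes in the PVN, and the column of EA against SEA is negative for 8 of 10 genes in each region, in the CEA for 5 of 10 without SEA replicate 2.

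The levels of the 10 genes were also compared between the regions. Per kilobase of gene length, the medians over the 12 libraries of a region put Junb at the top and Egr1 next in both regions, at 17.6 and 13.8 CPM per kb in the PVN and 28.4 and 25.9 CPM per kb in the CEA. Fos followed in the PVN (10.6 CPM per kb) but stood below Arc, Nr4a1 and Egr4 in the CEA (4.62 CPM per kb). Arc came next in the CEA (16.3 CPM per kb) and stood below Fos and Nr4a1 in the PVN (2.74 CPM per kb). Nr4a1 was at 5.89 CPM per kb in the PVN and 12.2 in the CEA. Neighbours in this order had overlapping ranges over the 12 libraries, except Fos and Fosb in the CEA, so the order of most adjacent genes is not firm. Over all treatments Npas4 and Egr2 held the last places, at 0.546 and 0.267 CPM per kb in the PVN and at 0.655 and 1.21 CPM per kb in the CEA. In CEA NC alone the means put Egr2 (4.77 CPM per kb) above Nr4a3 (2.54) and Fosb (2.14), and Egr1 (42.9) above Junb (39.7).

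Over the 4 treatments, 12 CEA libraries against 12 PVN libraries, 8 of 10 members were called by edgeR and by DESeq2, where edgeR called 57.9% of all genes and DESeq2 47.4%. Arc (log2 fold change 2.69, SE 0.158, edgeR adjusted p = 1.52e-12), Egr4 (2.90, SE 0.175, adjusted p = 2.26e-12) and Egr2 (2.56, SE 0.286, adjusted p = 5.79e-08) were higher in the CEA and did not overlap between regions, where 15.1% of genes did not. Also higher in the CEA, with overlap, were Egr1 (0.97, SE 0.141, edgeR adjusted p = 2.80e-06), Nr4a1 (1.02, SE 0.213, adjusted p = 0.000272), Junb (0.58, SE 0.084, adjusted p = 2.59e-06) and Fosb (0.41, SE 0.158, adjusted p = 0.0299). The Fosb call was lost when any of 4 PVN libraries (NC replicate 1, HT replicates 2 and 3, EA replicate 1) was left out (adjusted p 0.0506 to 0.0561). Fos was lower in the CEA (-1.03, SE 0.162, edgeR adjusted p = 8.10e-06). Npas4 (0.60, 95% interval -0.03 to 1.24, edgeR adjusted p = 0.117) and Nr4a3 (-0.25, interval -0.61 to 0.10, adjusted p = 0.242) did not pass, and they were at 0.24 without CEA SEA replicate 2 and at -0.13 without PVN SEA replicate 3.

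In the NC groups alone, 5 members were called, where 26.4% of genes were, all higher in the CEA. They were Egr2 (log2 fold change 4.16, SE 0.375, edgeR adjusted p = 0.000743), Egr4 (3.24, SE 0.230, adjusted p = 0.000389), Arc (3.01, SE 0.215, adjusted p = 0.000389), Nr4a1 (1.25, SE 0.265, adjusted p = 0.0139) and Egr1 (1.16, SE 0.140, adjusted p = 0.00191). With the replicate number as a block, edgeR also called Junb (adjusted p = 0.0350) and Fos (0.0314), in a fit that called 27.5% of genes. Fos was lower in the CEA. Junb was also called by DESeq2 (adjusted p = 0.0342), by edgeR with all 24 libraries in the fit (0.0294) and without CEA NC replicate 1 (0.0188). Those fits called 25.8%, 34.1% and 23.1% of genes. Without the block Junb had 0.49 (SE 0.155, edgeR adjusted p = 0.0559) and Fos -0.68 (SE 0.263, adjusted p = 0.0953). Npas4 (0.62, SE 0.250, edgeR adjusted p = 0.107), Fosb (0.28, SE 0.294, adjusted p = 0.516) and Nr4a3 (0.17, SE 0.240, adjusted p = 0.643) were not called. Single libraries moved 3 of these values. Without one library, Fos reached -0.43 (CEA NC replicate 1), Fosb 0.03 (PVN NC replicate 1) and Nr4a3 0.01 (PVN NC replicate 3) and 0.47 (PVN NC replicate 2).

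**Figure D5:**
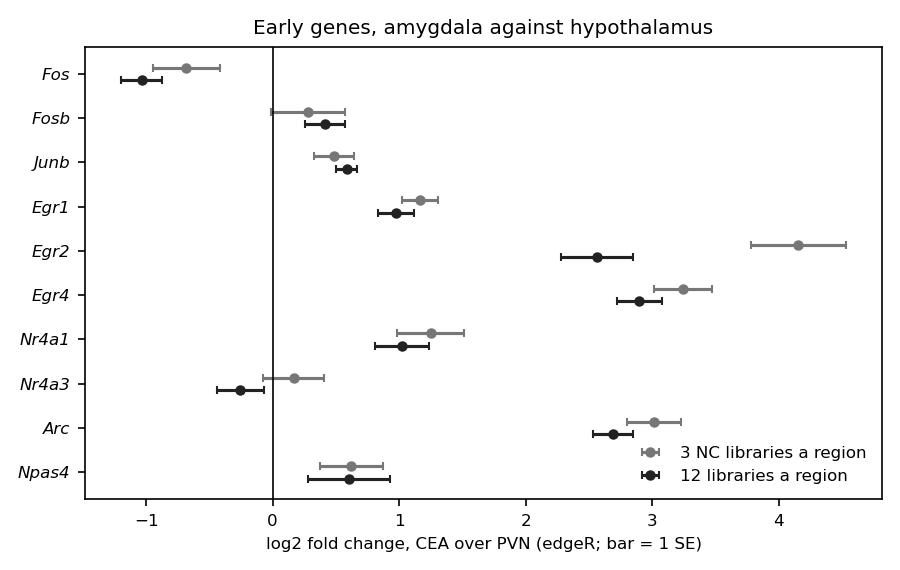
Log2 fold change of the CEA over the PVN (x axis) for each early gene (y axis), from the 3 NC libraries a region (grey) and the 12 libraries a region (black), with bars of 1 SE from edgeR. Arc, Egr2 and Egr4 lie beyond 2.5 in both. Fos is below 0 in both, and Nr4a3 is below 0 (-0.25) in the 12 libraries a region only.

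The difference between regions in the treatment effects was tested as an interaction. For HT against NC, 0 members were called by edgeR, where 0% of genes were, or by DESeq2, and 1 had an unadjusted p under 0.05, against 12.1% of genes. It was Egr2, whose HT effect was lower by 1.67 in the CEA (log2 difference -1.67, SE 0.512, edgeR adjusted p = 0.413). Fos followed (-0.83, SE 0.413, edgeR adjusted p = 0.423). For EA against HT, 0 members were called by either tool, where edgeR called 0% of genes, and 0 had an unadjusted p under 0.05, against 4.52%. The smallest p belonged to Egr2 (-0.94, SE 0.556, edgeR adjusted p = 0.945) and Egr1 (-0.54, SE 0.358, adjusted p = 0.945), the latter at -0.18 without PVN EA replicate 3. The low Egr2 counts in the PVN limit both of its values.

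Within groups, some pairs of members varied together more than others. On log2 CPM centred on each group, the median Pearson r over the 45 pairs was 0.253 in the PVN and 0.33 in the CEA (12 libraries each, which share depth and dissection between genes). In the CEA, Egr4 and Arc followed each other most closely (r = 0.922), and Egr2 followed Arc (0.854). In the PVN, Egr1 went with Nr4a1 (0.897) and Fos with Fosb (0.884), pairs that were themselves joined (Fosb with Egr1, 0.844), whereas Npas4 went against Egr1 (-0.844). PVN EA replicate 3 was the highest of its group for Nr4a1 (49.3 CPM) and Egr1 (50.3 CPM), and its Npas4 value rested on 4 counts. The part of this library in the PVN correlations was not tested. The median correlation with the other 9 members is given for Fos (0.553 in the PVN and -0.22 in the CEA), Npas4 (-0.578 and 0.486) and Nr4a3 (0.275 and -0.23). No value for other pairs of genes was computed, so these are a description of the 10 alone.

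The genes outside the set that were most like its mean, by the same centred log2 CPM over 24 libraries among 14611 candidates, were led by Tenm2, a teneurin adhesion protein (r = 0.81, rho = 0.777). Egr3, the remaining EGR factor, also ranked among the 10 (r = 0.723, rho = 0.647). The other 8 were Limd1, St6galnac2, Swap70, RGD1306746, Nid2, Hunk, Zc3h4 and Urb2, with r of 0.704 to 0.745. None of these 10 was called in either operated comparison, and Tenm2 was higher in the PVN libraries (a mean of 127 against 59.1 CPM). They were picked as the highest r of all candidates. PVN EA replicate 1 and CEA SEA replicate 2 lay farthest from the median of the set's mean. Without them r was 0.774 for Tenm2, 0.614 for Egr3 and 0.573 for Urb2, the lowest of the 10.

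Other genes of the pathway were counted from lists. The list of 32 other rapid early genes held 0 genes called by edgeR in any treatment comparison. In operated against NC, 5 were lower and 1 higher at an unadjusted p under 0.05 in the PVN, against 14.2% of all genes lower and 15.6% higher, with a median log2 fold change of -0.12. In the CEA 3 were lower and 1 higher, against 1.27% and 1.55%, with a median of -0.13. The smallest p belonged in the PVN to Klf10, a zinc finger repressor (-0.61, SE 0.188, edgeR adjusted p = 0.0790), and in the CEA to Dusp5, a phosphatase of ERK (-0.80, SE 0.211, adjusted p = 1.0). In HT against NC they were Sik1, a kinase that restrains CREB coactivators, in the PVN (-0.49, SE 0.152, edgeR adjusted p = 0.418) and Cebpb in the CEA (1.02, SE 0.344, adjusted p = 0.917). In EA against HT they were Rgs2 in the PVN (0.30, SE 0.089, edgeR adjusted p = 0.598) and Klf6 in the CEA (0.55, SE 0.235, adjusted p = 0.930). Between regions 14 were higher and 3 lower in the CEA, against 27.7% and 30.2% of all genes, among them Egr3 (3.94, SE 0.227, edgeR adjusted p = 1.03e-12), Gadd45b (1.27, SE 0.106, adjusted p = 4.69e-10) and, lower, Jund (-0.26, SE 0.067, adjusted p = 0.00215).

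Genes induced later by activity (16 listed) also held 0 calls between treatments. In CEA operated against NC, 15 of the 16 were negative, with a median log2 fold change of -0.28, and 2 were lower at an unadjusted p under 0.05, against 1.27% of all genes. Gpr3, a receptor that raises cAMP, had the smallest p (-0.93, SE 0.176, edgeR adjusted p = 0.681), and it led HT against NC too (-0.86, SE 0.221, adjusted p = 0.917). In the PVN 9 were positive and 7 negative, led by Inhba, the activin A subunit (0.77, SE 0.216, edgeR adjusted p = 0.0778). Between regions, against 27.7% of all genes higher and 30.2% lower, 8 were higher in the CEA, such as Homer1 (1.97, SE 0.181, edgeR adjusted p = 2.55e-09), a scaffold of metabotropic glutamate receptors, and 6 lower, such as Scg2, a secretory granule protein (-1.964, SE 0.103, adjusted p = 2.39e-13).

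Of the 30 measured genes that carry signals to early gene promoters, 0 were called between treatments. In PVN operated against NC, 15 were higher and 3 lower at an unadjusted p under 0.05, against 15.6% and 14.2% of all genes, with a median log2 fold change of 0.19. The thalamic and excitatory lists were higher in the same comparison, as given above, and their part was not tested. Map2k2, an ERK kinase, had the smallest p (-0.23, SE 0.058, edgeR adjusted p = 0.0778). In the CEA 0 were higher and 1 lower, against 1.55% and 1.27% of all genes, and that was Grin2b, an NMDA receptor subunit (-0.49, SE 0.190, edgeR adjusted p = 1.0). Between regions 22 were higher in the CEA, against 27.7% of all genes, led by Camk4 (2.28, SE 0.141, edgeR adjusted p = 3.34e-12), a kinase of CREB, and 2 lower, against 30.2%, Prkaca (-0.65, SE 0.052, adjusted p = 3.11e-10) and Rps6ka2 (-0.47, SE 0.061, adjusted p = 5.49e-07). The 15 partners of the proteins held 0 calls between treatments, with medians of -0.02 in the PVN and 0.03 in the CEA for operated against NC. Jun, the main partner of Fos, had the smallest p of them in PVN EA against HT (0.23, SE 0.094, edgeR adjusted p = 0.824). Between regions 8 of them were higher and 3 lower in the CEA, against the same 27.7% and 30.2%.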

How the data were processed

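The authors aligned filtered reads of strand-specific libraries with HISAT2 to a rat assembly and used featureCounts for gene totals (versions not given in the sources used here). The deposited values are raw counts, and how reads with several hits were counted is not stated. A stray second header line was left out. The 10 genes, the gene lists and the comparisons were chosen with earlier results of these data known. Each comparison was fitted on its own libraries in R 4.3.3 with edgeR 4.0.16 (quasi-likelihood, filterByExpr, TMM, two-sided, Benjamini-Hochberg over all genes, threshold 0.05). DESeq2 1.42.0 was an alternative, as were RLE factors, no filter, all 24 libraries in the fit, CPM by library total, a replicate block and leaving out each library. Log2 CPM used a prior count of 2. The text names all 10 genes, gives fold changes for those called or else the 2 with the smallest p (all 10 between regions), and up to 3 list genes a direction or else the 1 with the smallest p. Pairing by number was checked from deviations over 17768 genes. Every same-numbered pair correlated above 0.1 for CEA HT with NC (0.239, 0.18 and 0.294) and for CEA with PVN in NC (0.294, 0.13 and 0.196). By the numbers of the second header line, the CEA and PVN pairs of EA did so too (0.158, 0.167 and 0.116). By the first header they did not (0.158, -0.014 and -0.12). The CEA and PVN pairs of HT (0.097, -0.081 and -0.201) and of SEA (0.189, 0.034 and 0.098) did not either. With CEA HT replicates 2 and 3 exchanged, the HT values were 0.097, 0.174 and 0.185. The replicate block used the HT numbers as labelled. Scripts were tested on simulated data. Motifs were searched in RefSeq promoters of GRCr8. The SE of a log2 fold change was its absolute value divided by the square root of the edgeR F statistic. Intervals are 1.96 SE to each side and reflect the spread between libraries. With few libraries they are narrower than the test itself would give. Reads carried no molecular identifiers.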

Additional observations from a re-analysis of the deposited data

How the results depend on the processing

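Against NC, DESeq2 called 4 members in PVN operated, 2 in PVN HT, 2 in PVN EA, 3 in CEA operated, 3 in CEA HT, 8 in CEA EA and 2 in CEA SEA, where edgeR called 0 in each but PVN operated (1). PVN operated against NC went to 0 with RLE factors, with all 24 libraries in the fit, with the replicate block (0 members), without the SEA libraries and with the neuroendocrine list as a covariate. CEA operated against NC went to 1 without the filter, 1 with all 24 libraries and 3 with the CEA and striatal list as a covariate, and CEA EA against NC to 1 with all 24 libraries, in fits that called 0.00398%, 0.0169%, 0.0352% and 0.0113% of all genes. Leaving out each library gave 0 to 3 members in PVN operated, 0 to 4 in PVN HT, 0 to 2 in PVN EA and 0 to 2 in PVN SEA against NC, the highest always without PVN NC replicate 2, which also took calls over all genes to 33.7%, 20.2%, 19% and 24.3%. Nr4a1 in PVN EA against HT reversed to -0.084 without EA replicate 3, the lowest value of its leave-one-out range, which reached 1.294. The cause of these shifts was not tested. Elsewhere the replicate block changed the call of Junb and Fos in NC between regions (7 members against 5), in a fit that called 27.5% of genes. Junb was also called there by DESeq2 and with all 24 libraries in the fit, where 25.8% and 34.1% of genes were called. Exchanging CEA EA replicates 2 and 3 in the block left 8 members called between regions over 4 treatments, with 57% of genes. With 3 libraries a group, low counts of Npas4 and PVN Egr2 limit what can be called.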
